A study of Mus musculus with 40 samples.

Results

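Fragments around 10 pluripotency factor genes (Pou5f1, Sox2, Nanog, Klf2, Klf4, Esrrb, Tfcp2l1, Tbx3, Prdm14 and Zfp42) were examined in a reporter screen for enhancer activity. A fragment was taken as a member when its centre lay in the RefSeq gene body or within 25 kb of it on the mouse assembly GRCm38 (mm10). The 10 loci held 384 of the 458486 fragments listed over all libraries (0.0838%), which were 300 of 354627 different fragments and 53 of 75060 regions, a region being a run of overlapping fragments from any library. In the screen, open-chromatin fragments cut by the Tn5 transposase from 5 stages of blood cell differentiation were mixed, placed singly in front of an HSP68 minimal promoter and a Venus-YFP reporter, and integrated at the HPRT locus of HM-1 cells, a 129/ola mouse embryonic stem cell line whose own HPRT gene does not function. The transfected cells, a pool in which each cell carries 1 construct, were sorted as embryonic stem cells (ES), FLK1+ hemangioblasts from embryoid bodies (HB), hemogenic endothelium of the KIT+ TIE2+ CD41- (HE1) and KIT+ TIE2+ CD41+ (HE2) phenotypes and KIT+ TIE2- CD41+ hematopoietic progenitors (HP). Each stage was split into 4 gates by YFP level (Negative, Low, Medium and High) in 2 replicates, which gave 40 libraries and 10 sorts, a sort being 1 stage of 1 replicate. Every group came from the same line and reporter, and all cells had been treated with 6-thioguanine before transfection, with the end-joining inhibitor SCR7 after it and then with HAT and HT medium to select cells with a repaired locus. The later stages were differentiated from these cells in serum. The sources do not say whether the replicates were separate transfections, so p-values measure only the spread between these samples, which may be technical. Positive fragments are the union of the Low, Medium and High libraries of a sort, and Negative fragments are those of its Negative gate, which was set on cells carrying the minimal promoter alone. The lists hold no expression data, so the identity of the sorted cells could not be checked against marker genes.

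Pluripotency factors are transcription factors that hold embryonic stem cells in a self-renewing state and are switched off as the cells leave it. Pou5f1 (OCT4), Sox2 and Nanog form the core of this network and bind many enhancers together, including their own. Klf2, Klf4, Esrrb, Tfcp2l1 and Tbx3 sustain the naive state. Prdm14 represses lineage and DNA methyltransferase genes, and Zfp42 (REX1) is a widely used marker of undifferentiated cells. The reporter assay asks which fragments from these loci can drive a minimal promoter at a given stage. By the study's methods, fragments were kept only where they lay in native open chromatin and under an ATAC peak of the matching stage, so the numbers per stage given here depend on the accessibility of the native locus as well as on the reporter, and the parts of both cannot be told apart.

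Depth and shared fragments touch every value given here. The replicate 1 libraries held 4869 to 51146 fragments and the replicate 2 libraries 654 to 31915, and 337 of the 384 member fragments came from replicate 1 (9.33 per 10000 fragments) against 47 from replicate 2 (4.83 per 10000). No member fragment was found in 7 of the 20 replicate 2 libraries, where a count of 0 still allows 10.8 to 45.9 fragments per 10000, so absence there was not detectable at this depth. HE1 Medium and HE1 Negative of replicate 1 shared 28868 identical fragments, or 69.8% of the Negative library, and 25 of the 36 HE1 Negative member fragments of replicate 1 were also in HE1 Medium. Libraries of replicate 2 also shared many fragments, up to 65.5% of ES Medium, which were in HE1 Low as well with 1 member fragment among them. Whether this sharing arose in the sort or in the library preparation was not tested. A fragment is listed once per library however many reads it had, so p-values below measure the spread between sorts or the counting of fragments, not of molecules.

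None of the 384 fragments lay within 1500 bp of a curated start site, so all values are of distal fragments and the promoters of the 10 genes are not covered. The reference sequences under the most covered point of the regions that carry the findings are printed 5′ to 3′ on the plus strand of GRCm38 (RefSeq, C57BL/6J, so 129/ola bases may differ). Capitals mark consensus words of the network's own factors, namely ATGCAAAT (OCT), ACAATGG or ACAAAGG (SOX), TCAAGGTCA (ESRRB), GGGTGTGGC or GGGCGTGGC (KLF), TTCCNGGAA (STAT), AGGTGTGA (TBX), GGTCTCTAA (PRDM14) and AANATGGC (YY1 and ZFP42), each searched on both strands. The first 3 sequences are from the core factors, namely the upstream of the Pou5f1 regions, which have 1 fragment each, and the most recovered regions of Sox2 and Nanog, the Nanog one having no Negative fragment.
Pou5f1, chr17:35490529-35490828, between genes: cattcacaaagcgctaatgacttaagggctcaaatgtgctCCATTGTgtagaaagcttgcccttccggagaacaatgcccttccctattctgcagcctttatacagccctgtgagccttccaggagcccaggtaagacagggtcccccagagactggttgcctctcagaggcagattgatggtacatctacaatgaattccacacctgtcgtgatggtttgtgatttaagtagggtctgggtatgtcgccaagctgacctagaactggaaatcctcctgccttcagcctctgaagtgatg
Sox2, chr3:34664038-34664337, intron of Sox2ot: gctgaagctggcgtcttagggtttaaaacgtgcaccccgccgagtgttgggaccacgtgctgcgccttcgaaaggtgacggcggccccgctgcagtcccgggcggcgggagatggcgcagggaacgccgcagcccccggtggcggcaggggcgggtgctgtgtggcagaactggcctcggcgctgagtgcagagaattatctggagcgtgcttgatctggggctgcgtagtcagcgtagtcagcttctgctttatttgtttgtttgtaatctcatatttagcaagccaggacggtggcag
Nanog, chr6:122702538-122702777, between genes: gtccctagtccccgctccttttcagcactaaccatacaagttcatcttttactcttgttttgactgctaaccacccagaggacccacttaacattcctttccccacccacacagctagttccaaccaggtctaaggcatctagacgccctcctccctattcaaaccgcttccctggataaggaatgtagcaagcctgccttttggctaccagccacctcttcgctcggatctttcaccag
The next pair are the most recovered regions of the KLF genes and of all 10 loci.
Klf2, chr8:72295681-72295980, between genes: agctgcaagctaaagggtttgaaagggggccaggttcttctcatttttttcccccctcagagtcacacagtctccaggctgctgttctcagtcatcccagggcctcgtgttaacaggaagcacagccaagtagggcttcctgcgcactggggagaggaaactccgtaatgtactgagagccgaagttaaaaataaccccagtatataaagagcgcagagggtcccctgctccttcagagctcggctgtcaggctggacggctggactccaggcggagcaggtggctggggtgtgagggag
Klf4, chr4:55530241-55530540, coding part of exon 3: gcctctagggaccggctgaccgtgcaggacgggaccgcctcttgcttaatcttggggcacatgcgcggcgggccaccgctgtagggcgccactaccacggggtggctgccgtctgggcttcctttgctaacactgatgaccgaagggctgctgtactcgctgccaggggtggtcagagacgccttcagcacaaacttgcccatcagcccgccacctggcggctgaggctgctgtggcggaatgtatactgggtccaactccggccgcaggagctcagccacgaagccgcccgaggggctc
The last 3 are from Esrrb: the region with positive fragments in both replicates, a region with 1 Negative fragment and a SOX word, and a region recovered in replicate 2 alone with a YY1 and ZFP42 word.
Esrrb, chr12:86398745-86399017, intron 1: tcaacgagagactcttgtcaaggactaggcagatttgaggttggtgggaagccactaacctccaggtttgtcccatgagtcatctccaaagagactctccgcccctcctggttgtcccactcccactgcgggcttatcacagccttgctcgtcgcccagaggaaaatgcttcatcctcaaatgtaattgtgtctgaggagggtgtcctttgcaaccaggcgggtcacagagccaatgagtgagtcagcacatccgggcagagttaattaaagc
Esrrb, chr12:86433354-86433653, intron 1: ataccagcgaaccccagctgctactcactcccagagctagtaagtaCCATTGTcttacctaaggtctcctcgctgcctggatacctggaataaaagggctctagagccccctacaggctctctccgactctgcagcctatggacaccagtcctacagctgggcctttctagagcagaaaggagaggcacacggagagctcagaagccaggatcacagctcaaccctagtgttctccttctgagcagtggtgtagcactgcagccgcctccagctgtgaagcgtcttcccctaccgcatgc
Esrrb, chr12:86357997-86358237, between genes: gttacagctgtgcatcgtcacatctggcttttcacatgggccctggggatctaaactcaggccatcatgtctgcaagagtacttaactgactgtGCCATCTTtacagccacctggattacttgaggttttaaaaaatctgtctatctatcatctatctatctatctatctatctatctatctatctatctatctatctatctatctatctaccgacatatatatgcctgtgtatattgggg

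The fragments were spread unevenly over the 10 loci. Esrrb held 116 fragments, Klf4 93, Klf2 75, Tbx3 49, Sox2 19, Nanog 13, Tfcp2l1 10, Prdm14 5, and Pou5f1 and Zfp42 2 each, while the median over 21000 protein-coding gene loci was 10 (quartiles 1 and 37). Per length, Klf4 with 16.8 fragments per 10 kb exceeded 95.0% of all loci and Klf2 with 14.3 exceeded 93.3%. Esrrb, the longest of the 10, had 5.51 per 10 kb and Pou5f1 only 0.365, below the median of 1.03. Of the 384 fragments, 347 had the member gene's own start as the nearest curated start. Most of the others were at Tbx3, where 15 of 49 did and the rest were nearer to Tbx3os1, Tbx3os2 or Gm16063. Nearness to a start does not show which gene a fragment regulates.

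**Figure D1:**
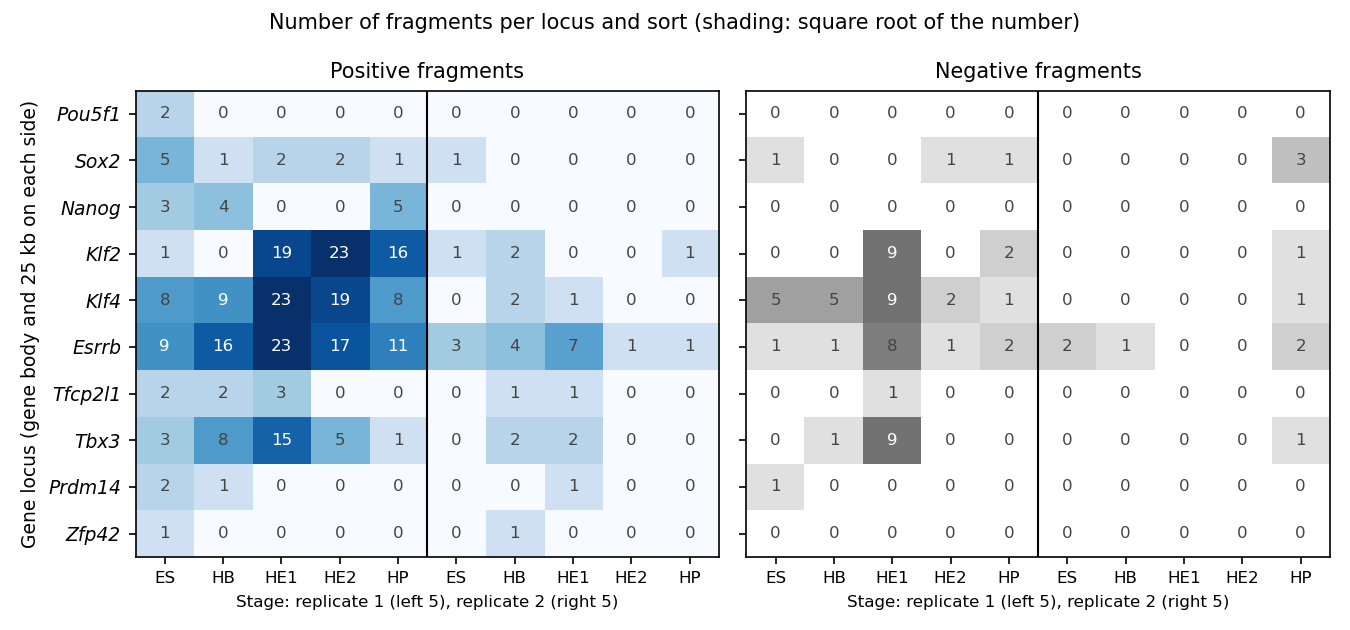
Number of positive (left, blue) and Negative (right, grey) fragments at each of the 10 loci (vertical axis) in the 10 sorts (horizontal axis, replicate 1 left of the black line and replicate 2 right of it), with shading by the square root of the number. Klf2, Klf4, Esrrb and Tbx3 hold most fragments, and the Negative fragments gather in HE1 of replicate 1, where Klf2, Klf4 and Tbx3 have 9 each and Esrrb 8.

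Summed over the 10 loci, positive fragments in replicate 1 made up 13.0 per 10000 in ES, 10.5 in HB, 8.34 in HE1, 9.65 in HE2 and 10.6 in HP. Negative fragments of the same sorts made up 7.73, 8.31, 8.70, 4.74 and 7.09 per 10000. In replicate 2 the positive values were 5.54 in ES, 9.83 in HB, 3.45 in HE1, 2.88 in HE2 and 3.84 in HP, against Negative values of 7.11, 3.27, 0, 0 and 5.35. Positive fragments were thus the more frequent in 7 of 10 sorts, and the ranges of both classes overlapped. In HE1 and HE2 of replicate 2 this order rests on a Negative count of 0, which allows 10.8 and 11.0 per 10000 and so more than the positive rates, so it was not detectable at this depth. The mean over sorts was 7.76 ± 3.56 per 10000 (SD, n = 10) for positive and 5.23 ± 3.22 for Negative fragments. Counting a fragment found in several gates of a sort once, 302 were positive and 72 Negative, where the split of each sort's own fragments would have given 289 positive (observed over expected 1.04). Without HE1 of replicate 1 the ratio was 1.07. Pooled over stages and replicates, the loci made up 6.97 per 10000 in Negative, 7.49 in Low, 10.0 in Medium and 8.62 in High libraries. The replicates enter the gates in unequal parts. HE1 Low of replicate 2 alone held 31915 of the 108178 Low fragments, with members at 3.45 per 10000. The gates were not compared within a replicate, so their order may reflect the replicates.

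**Figure D2:**
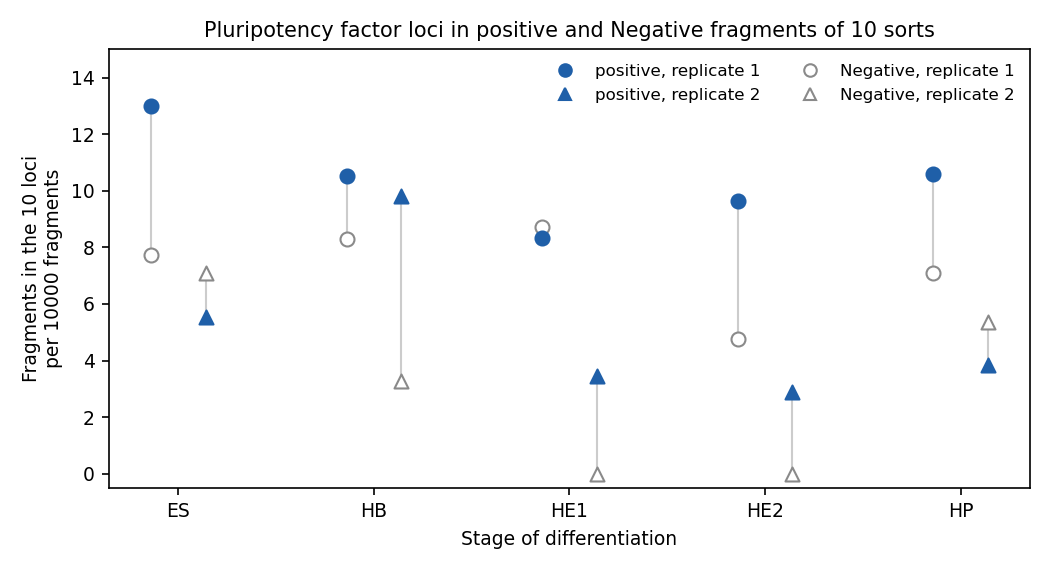
Fragments in the 10 loci per 10000 fragments of the same class (vertical axis) at the 5 stages (horizontal axis), for positive (blue, filled) and Negative (grey, open) fragments of replicate 1 (circles) and replicate 2 (triangles), each pair joined by a line. Positive points lie above the Negative ones in 7 of the 10 sorts, in 2 of them against a Negative count of 0, and at each stage the replicate 2 points lie below the replicate 1 points of the same class.

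No member was called when positive and Negative fragments were compared per gene locus. Only Klf2, Klf4, Esrrb and Tbx3 reached the 20 fragments needed for a test, Sox2 missing it by 1. In limma voom on the 10 sorts, 0 of these 4 and 0 of 7955 loci tested passed an adjusted p of 0.05 (0%). An unadjusted p under 0.05 was found for 0 of the 4 and 758 of all loci. The model held class and stage, so it did not use the pairing of positive and Negative fragments within a sort. The median difference over all loci was -0.45 on the log2 scale, and with another treatment of empty libraries (a prior count scaled to each library) it was 0.33, so each member is given against the median. Esrrb lay 0.88 above that median, Klf2 0.37 above, Tbx3 0.20 above and Klf4 0.14 below, and with the scaled prior count they kept these sides (0.62, 0.86 and 0.48 above and 0.31 below). With the sort as a block in limma voom, which keeps the pairing, 2 of 7955 loci were called, none of them a member (lowest adjusted p 0.406, Klf4). The Cochran-Mantel-Haenszel test, which counts fragments within each sort, called 4 of 7955 loci (0.0503%), none of them a member.

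Esrrb encodes a nuclear receptor-like factor that binds beside OCT4 and SOX2 in naive cells, and it was the only one of the 10 with positive fragments in all 10 sorts. In replicate 1 it had 9 positive fragments in ES, 16 in HB, 23 in HE1, 17 in HE2 and 11 in HP, and in replicate 2 it had 3, 4, 7, 1 and 1. The positive rate ran from 1.92 to 4.11 per 10000 with a median of 2.83, and the Negative rate from 0 to 7.11 with a median of 1.26. Positive fragments were more frequent than Negative ones in 9 of 10 sorts, the exception being ES of replicate 2, where 2 Negative fragments stood among only 2814. Of the 9, HE1 and HE2 of replicate 2 rest on a Negative count of 0 in small libraries, and in HB of replicate 2 both rates were nearly equal at 3.28 and 3.27. The 92 positive fragments compared with 85.7 expected, and the limma difference was 0.42 with a standard error of 0.37 (log2, adjusted p = 0.634). The difference was close to its standard error, and the Cochran-Mantel-Haenszel odds ratio of 1.50 had an adjusted p of 1 over all loci.

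Esrrb also held the most regions, 16, of which 14 had a positive fragment and 11 were in introns of the gene. The region with most fragments (chr12:86398745-86399259, 34 fragments, intron 1) lay 22776 bp upstream of an internal start and was positive in 5 stages, with 25 positive and 7 Negative fragments against 25.7 expected positive. One of its fragments, 76 bp long, occurred in 7 libraries, 6 of them of replicate 2 and 1 of replicate 1. A neighbouring region (chr12:86395098-86395819, 20 fragments) had 16 positive and 4 Negative fragments, and a second one (chr12:86402764-86403225, 24 fragments) had 18 and 4. The region with the SOX word printed above (chr12:86433343-86433764) had 19 fragments, 18 of them positive and 1 Negative, with 3 positive in ES, 2 in HB, 6 in HE1, 3 in HE2 and 4 in HP, all of replicate 1. Upstream of the gene, the region at chr12:86357997-86358237 was seen in replicate 2 alone, with 1 positive fragment in ES, 2 in HB and 3 in HE1 and 0 Negative. Its 8 list entries came from 3 different fragments, 1 of which occurred in 5 libraries.

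Klf4, a zinc finger factor and one of the reprogramming factors, had 8 positive fragments in ES, 9 in HB, 23 in HE1, 19 in HE2 and 8 in HP of replicate 1. In replicate 2 it had 2 in HB, 1 in HE1 and 0 in ES, HE2 and HP. The Negative libraries of replicate 1 held 5, 5, 9, 2 and 1 fragments in the same stage order, and those of replicate 2 held 1, in HP. The positive rate was 0 to 2.89 per 10000 (median 1.83) and the Negative rate 0 to 5.93 (median 0.926), so the ranges overlapped and the highest value was a Negative one. Observed over expected was 0.964, and the limma difference was -0.59 with a standard error of 0.45 (adjusted p = 0.596). All 9 Negative fragments of HE1 in replicate 1 were also in its Medium library.

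Most Klf4 fragments, 78 of 93, formed 1 region over the coding part of exon 3 (chr4:55529639-55531074), 2084 bp from the start site. It was positive in all 5 stages and in both replicates, with 60 positive and 18 Negative fragments against 60.3 expected positive (Cochran-Mantel-Haenszel ratio 0.995, adjusted p = 1). The plus strand printed above is the antisense strand of this gene. A KLF word was found in this region, 240 bp from its most covered point and outside the window shown, and 12 different fragments covered it. The other large Klf4 region (chr4:55514580-55514902), 17685 bp downstream of the start site, had 9 positive and 5 Negative fragments, and its 6 positive fragments of HE2 in replicate 1 were the most of any sort.

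Klf2, a related zinc finger factor that in mouse cells shares the support of the naive state with Klf4 and is later known for its role in endothelium, had a different distribution over stages. In replicate 1 it had 1 positive fragment in ES, 0 in HB, 19 in HE1, 23 in HE2 and 16 in HP, and in replicate 2 it had 1, 2, 0, 0 and 1. Its Negative fragments were 9 in HE1 and 2 in HP of replicate 1 and 1 in HP of replicate 2. In rates this was 0.361 positive fragments per 10000 in ES and 0 in HB of replicate 1 against 1.86, 3.36 and 4.03 in HE1, HE2 and HP. Each of these values is from 1 sort, and in replicate 2 the order was not kept (1.11, 1.64, 0, 0 and 1.92). The grouping of HB with ES was made after the values were seen and was not tested, and other loci were not compared in this way. Of 63 positive Klf2 fragments 2 were from ES, where the stages' shares of all positive fragments would have given 6.47. The ES versus later change was -0.61 with a standard error of 1.13 on the log2 scale (limma, adjusted p = 0.998). The Cochran-Mantel-Haenszel odds ratio of 0.283 had an adjusted p of 0.587.

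The Klf2 fragments came almost all from 1 region between genes, 23231 bp upstream of the start site (chr8:72295623-72296196, 71 fragments). It held 59 positive and 12 Negative fragments against 56.3 expected positive (Cochran-Mantel-Haenszel ratio 1.05, adjusted p = 1). Of its 60 different fragments 10 occurred in several libraries, and of the 9 Klf2 Negative fragments of HE1 in replicate 1, 7 were also in HE1 Medium. None of the 8 kinds of word was found in the whole region. The other 4 Klf2 regions held 1 fragment each, all positive.

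Tbx3, a T-box repressor that supports self-renewal and is used again in mesoderm and limb, had 3 positive fragments in ES, 8 in HB, 15 in HE1, 5 in HE2 and 1 in HP of replicate 1, and 0, 2, 2, 0 and 0 in replicate 2. Its 11 Negative fragments were 1 in HB and 9 in HE1 of replicate 1 and 1 in HP of replicate 2. The positive rate was 0 to 2.05 per 10000 (median 0.653) and the Negative rate 0 to 2.18 (median 0), with overlap. The limma difference was -0.25 with a standard error of 0.41 (adjusted p = 0.803), and 36 positive fragments were observed where 35.6 were expected. The largest Tbx3 region (chr5:119680183-119681165, coding part of exon 7) had 16 positive fragments and 1 Negative one and was positive in 5 stages of replicate 1. A region in Tbx3os1 (chr5:119651477-119652056) was positive in both replicates, with 6 positive and 5 Negative fragments, all 5 from HE1 of replicate 1.

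Nanog, a homeobox factor of the core, was the locus with most fragments and no Negative one. Its 12 positive fragments, all of replicate 1, were 3 in ES, 4 in HB and 5 in HP, with 0 in HE1 and HE2. By gate, 7 of its 13 library entries were High, 6 Medium and none Low. Of these, 10 positive fragments formed the region printed above (chr6:122702538-122703096), 4861 bp upstream of the start site, with 2 in ES, 4 in HB and 4 in HP. A count of 0 among 10 allows a Negative share of up to 30.0%, and 8.04 positive fragments were expected. In the whole series 80 of 902 regions of 11 entries (8.87%) had no Negative fragment. SOX words lay in this region 260 and 456 bp from the most covered point, outside the window shown, the first under 3 different fragments and the second under 1.

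Sox2, the HMG-box partner of OCT4, had 5 positive fragments in ES, 1 in HB, 2 in HE1, 2 in HE2 and 1 in HP of replicate 1, and 1 in ES of replicate 2. Its 6 Negative fragments were 1 each in ES, HE2 and HP of replicate 1 and 3 in HP of replicate 2. In rates, ES had 1.80 and 1.11 positive fragments per 10000 in the replicates, the highest values of the locus, and no other sort exceeded 0.292. The region printed above (chr3:34663965-34664654) lay 14193 bp downstream of the Sox2 start in an intron of the long non-coding RNA Sox2ot, and held 8 positive and 3 Negative fragments, of which 4 positive ones were from ES. All Sox2 regions were in introns of Sox2ot, and none was positive in both replicates.

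The remaining loci had few fragments. Pou5f1, which encodes OCT4, had 2, both positive and both from ES of replicate 1, 1 in the Medium and 1 in the High gate. One lay 15353 bp upstream of its start (chr17:35490491-35490867) and holds the SOX word shown in capitals, and the other lay 26080 bp downstream (chr17:35534779-35534994), nearer to Psors1c2. Zfp42 had 1 positive fragment in ES Low of replicate 1 and 1 in HB High of replicate 2. Prdm14, a PR-domain repressor, had 4 positive fragments, 2 in ES and 1 in HB of replicate 1 and 1 in HE1 of replicate 2, and 1 Negative fragment in ES. Tfcp2l1, a grainyhead-like factor, had 9 positive fragments and 1 Negative one, and its main region (chr1:118647974-118648323, intron 2, 7 fragments) was positive in ES, HB and HE1 of replicate 1 and in HE1 of replicate 2. With so few fragments at these 4 loci, no difference between classes or stages was detectable.

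**Figure D3:**
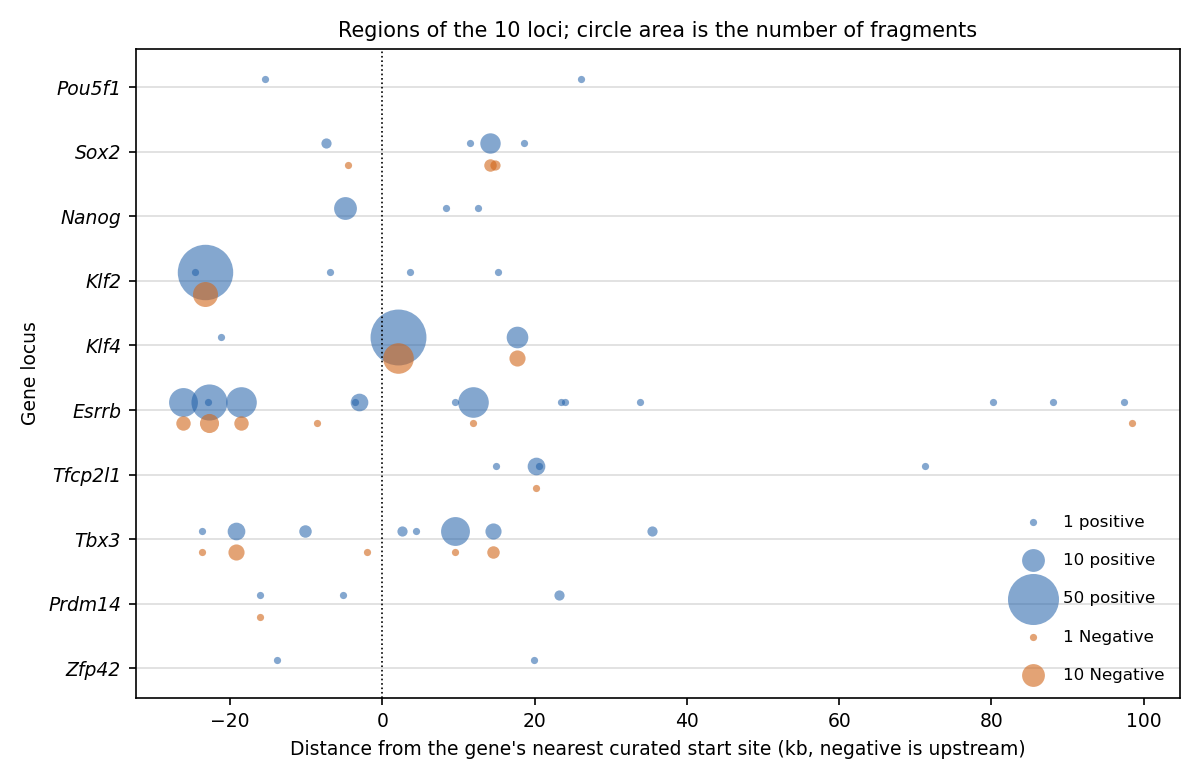
The 53 regions by distance from the nearest curated start of the member gene (horizontal axis, kb, negative is upstream) at the 10 loci (vertical axis), with circle area proportional to the number of positive (blue, upper) and Negative (orange, lower) fragments. The largest Klf2 region, of 71 fragments, lies 23231 bp upstream. The largest Klf4 region, of 78 fragments, lies 2084 bp into the gene, while the Esrrb fragments fall into several regions.

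The stage comparison asked whether these loci lose positive fragments once the cells leave the ES stage. Of 302 positive fragments 41 (13.6%) were from ES, where 31.5 were expected from the stages' shares of all positive fragments within each replicate. The ES number was above expectation at 8 loci, among them Sox2 (6 where 1.24 were expected), Esrrb (12 against 9.84) and Klf4 (8 against 7.13). The rest of the 8 had 1 to 3 ES fragments each where 0.20 to 1.20 were expected, so few fragments put them above. The ES number was below expectation at Klf2 and Tbx3. How many of all loci were above expectation was not counted. The mean rate in ES was 9.27 ± 5.26 per 10000 (SD, n = 2), that in HB was 10.2 ± 0.493, in HE1 5.89 ± 3.46, in HE2 6.26 ± 4.78 and in HP 7.21 ± 4.77. The ES value of 13.0 in replicate 1 was above every later sort and that of 5.54 in replicate 2 was within their range, so the groups overlapped. Without ES of replicate 1 the ES mean was 1.84 per 10000 lower than the later mean, and without ES of replicate 2 it was 5.60 higher. Both values set ES of 1 replicate against later sorts of both replicates, which differ in rate. Within replicate 1 alone ES was 3.21 per 10000 higher than the later mean. Within replicate 2 alone it was 0.54 higher, on 5 positive ES fragments. With a window of 50 kb the difference was -0.13 per 10000 in place of 1.88. Negative fragments gave 7.42 ± 0.439 in ES and 5.79 ± 3.56, 4.35 ± 6.15, 2.37 ± 3.36 and 6.22 ± 1.23 in HB, HE1, HE2 and HP.

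None of the 4 tested loci passed the test between ES and the later stages. In limma voom 0 of 4 members and 0 of 7955 loci (0%) were called for positive fragments, 241 of all loci and 0 members having an unadjusted p under 0.05. The log2 difference was 0.30 with a standard error of 0.57 for Esrrb, -0.14 with 0.90 for Klf4 and 0.07 with 0.81 for Tbx3, with adjusted p = 0.998 for each and a median over all loci of 0.07. For Negative fragments 0 of 7940 loci (0%) were called, 185 having an unadjusted p under 0.05. The members gave 0.72 (Esrrb), 0.51 (Klf4), -0.69 (Tbx3) and -0.73 (Klf2), where the median over all loci was 0.12. The difference between the positive and the Negative change was called at 0 of 7955 loci (0%, 53 with an unadjusted p under 0.05). It was -0.93 with a standard error of 1.21 for Klf4, 0.49 with 1.15 for Tbx3, -0.29 with 1.00 for Esrrb and 0.28 with 1.55 for Klf2. Its median over all loci was -0.22. The Cochran-Mantel-Haenszel test, with the replicates as strata, called 83 of 7955 loci (1.04%) in positive fragments and 14 of 7940 (0.176%) in Negative ones, and no member in either.

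Read by region, 23 of the 53 regions (43.4%) had a positive ES fragment, compared with 23.1% of all 75060 regions, and 11 (20.8%) were positive in ES only, compared with 7.60%. The 23 regions covered all 10 loci. However, 18 of them were seen in replicate 1 and 5 in replicate 2, none in both, and 10 of the 11 ES-only regions consisted of 1 fragment. Positive fragments in both replicates at any stage were found in 5 regions (9.43%, compared with 6.84% of all regions), 1 each at Klf2, Klf4, Esrrb, Tfcp2l1 and Tbx3. Regions without a Negative fragment made up 64.2% of the members and 54.3% of all regions.

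The test per region found no member either. Of 5742 regions with at least 20 fragments 12 were called by the Cochran-Mantel-Haenszel test (0.209%), 11 of them with fewer positive fragments than expected, and 5 member regions were among those tested. Observed over expected positive fragments was 1.07 and 0.973 and 1.04 for the Esrrb regions in genome order, 1.05 for Klf2 and 0.995 for Klf4, all with adjusted p = 1. None of these values departed from 1 beyond the counting of fragments, the test treating fragments of a sort as independent.

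**Figure D4:**
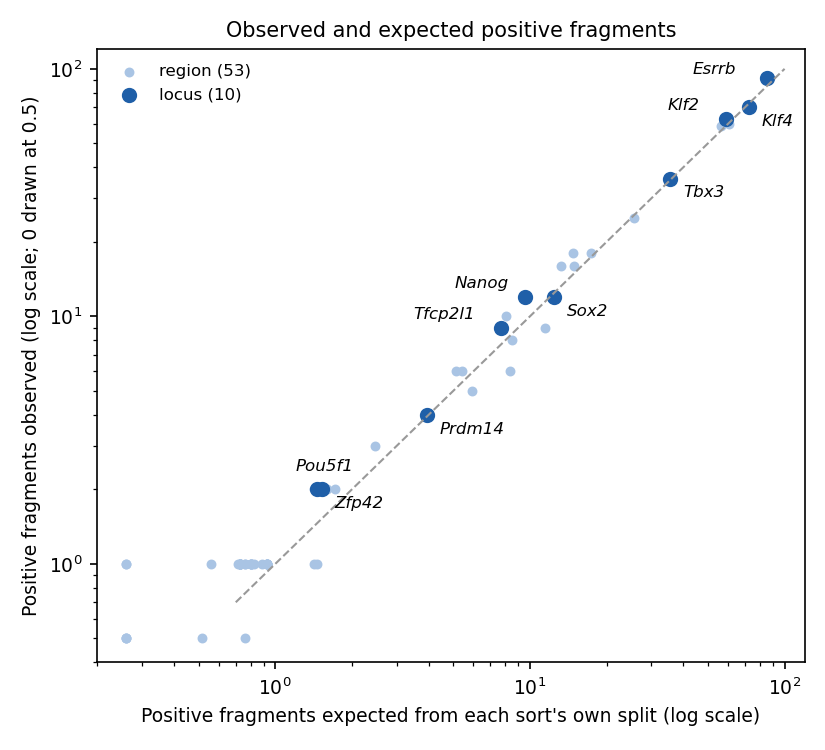
Positive fragments observed (vertical axis, log scale, 0 drawn at 0.5) and expected from each sort's own split into positive and Negative (horizontal axis, log scale) for the 10 loci (dark blue, named) and the 53 regions (light blue), with the line of equality dashed. The loci lie along the line, with 8 of the 10 above it and a summed ratio of 1.04. A locus without a Negative fragment always lies above the line, as do Nanog and, with 2 fragments each, Pou5f1 and Zfp42. How many of all loci lie above it was not counted.

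Fragments with identical ends were also followed across libraries. Of the 300 different fragments 56 (18.7%) occurred in several libraries, close to the 19.0% of all fragments, and 31 of them in several stages. Of 49 different ES fragments 9 were found again at a later stage. Fragments with identical ends in both replicates numbered 4, 1 each at Esrrb, Klf4, Tbx3 and Tfcp2l1. In 32 cases the same fragment was in a positive and in a Negative library, 27 of them within 1 sort. An 185 bp fragment of the Klf4 exon, for example, was in 2 positive and 4 Negative libraries over 4 stages, and a 178 bp fragment of Esrrb intron 1 was in 5 positive libraries and 1 Negative one.

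The consensus words were searched in the 300 bases around the most covered point, counting only words inside the region itself. A SOX word was found in 5 of 53 regions (9.43%, compared with 9.63% of 75043 regions), a KLF word in 2 (3.77% against 1.15%), a YY1 and ZFP42 word in 2 (3.77% against 3.60%), and an OCT (1.89% against 1.16%), STAT (1.89% against 0.973%) and TBX word (1.89% against 1.13%) in 1 each. No region held the ESRRB word (0.508% of all) or the PRDM14 word (0.185% of all) there. The KLF words were at Sox2 and Zfp42, in regions of 2 fragments and 1 fragment. None of the 8 was present in 41 regions (77.4%, against 82.8% of all), and the regions were of unequal width (median 283 bp for the members and 264 bp for all). Different member fragments had a mean GC content of 59.2% in replicate 1 and 50.6% in replicate 2, and a median length of 181.5 and 239 bp, where all fragments had 55.6% and 49.3% GC and 166 and 235 bp.

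The wider network and 2 lists of other lineage factors were measured the same way. Of 40 other genes of the ES cell network, 21 reached 20 fragments, and 0 of them rose or fell in any of the 4 limma comparisons, 2 having an unadjusted p under 0.05 for positive against Negative fragments and 1 for ES against later positive fragments. Over the 10 sorts they made up 38.0 ± 11.8 positive and 42.3 ± 9.75 Negative fragments per 10000 (SD, n = 10), positive being higher in 4 sorts. Of 10 core blood and endothelial factors 7 were tested and 0 called (19.1 ± 3.88 positive and 20.0 ± 5.98 Negative per 10000, positive higher in 5 sorts). Of 10 mesoderm and cardiac factors 7 were tested and 0 called (10.2 ± 4.02 and 12.5 ± 6.12, positive higher in 5 sorts). Of the 7 tested in each, 2 blood and 1 mesoderm loci had an unadjusted p under 0.05 for positive against Negative fragments. The median log2 difference in that comparison was -0.66 for the other network genes, -0.39 for the blood and -0.59 for the mesoderm list, against -0.16 for the 4 tested members and -0.45 for all loci. For ES against later positive fragments the median was 0.56 for the other network genes, -0.52 for the blood and -0.31 for the mesoderm list. It was -0.04 for the 4 tested members and 0.07 for all loci. The differences between the lists were not tested. Among the 40 network genes, the loci whose positive rate over the 10 sorts ran most like that of the summed members were Jarid2 (Spearman rho 0.83), L1td1 (0.82) and Dnmt3b (0.82). Jarid2 held 154 fragments, L1td1 20 and Dnmt3b 15, the last below the 20 needed for a test. The sorts share the lower rates of replicate 2 and the order is a description only.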

How the data were processed

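The deposited data were 40 lists of unique fragments, 1 per library, giving chromosome, start and end, with no read counts; the unit is the coordinate of a fragment (other). Per the labels and methods, the authors amplified the integrated fragments by PCR without molecular identifiers, used Trim Galore for trimming and Bowtie2 for alignment to the mm10 build, and derived the lists with SAMtools, bedtools and HOMER. They removed fragments also found in untransfected cells and kept those in open chromatin with an ATAC peak of the matching stage. Fragments within 1500 bp of a transcription start were annotated as promoter fragments, apart from the distal ones. The tool versions behind the fragment lists are not given in the sources used here. Because each fragment is listed once, amplification does not weight a fragment, but read support is unknown and any interval covers counting error only.

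Fragments were assigned by their centre to 21000 protein-coding loci (RefSeq gene body with 25 kb on either side), and overlapping fragments of all libraries were merged into regions. Loci and regions with at least 20 fragments were tested. Positive and Negative fragments, and ES and later stages, were compared per locus with limma voom (limma 3.58.1 in R 4.3.3, prior count 0.5, 10 sorts as samples), and regions with the Cochran-Mantel-Haenszel test with sorts as strata (Python 3.11.15, scipy 1.17.1), with Benjamini-Hochberg adjustment over all loci or regions at 0.05. Expected positive numbers follow each sort's own split. Both tests were run on simulated data. In these, voom with the fixed prior count shifted loci made without a change below 0 and the scaled prior count shifted them above it. The median of all loci is therefore given for each limma comparison. Alternatives were a replicate block, no weights, windows of 10 and 50 kb, other filters, collapsed or removed identical fragments and left-out sorts. For positive against Negative fragments per locus, the replicate block was the sort, which pairs both classes, while the main model held only the stage. The Cochran-Mantel-Haenszel test per locus, the scaled prior count and the alternatives for the summed loci were chosen after seeing the data. What the replicate numbers share beyond the label is not given in the sources used here.

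All 10 members are described. Named regions are the one with most positive fragments at each locus, those with at least 20 fragments and those positive in both replicates; other regions, and the identical fragments, were chosen after their values were seen. Other network genes are named by the highest Spearman correlation with the summed loci over the sorts. The members and lists were chosen with earlier results of these data known.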

Additional observations from a re-analysis of the deposited data

Results flagged for a closer look

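At the Sox2 locus, the positive minus Negative rate had opposite signs in ES and HP. In ES the positive rate exceeded the Negative rate by 0.84 per 10000 fragments in replicate 1 and by 1.11 in replicate 2. These rest on 5 positive and 1 Negative fragments in replicate 1 and on 1 positive and 0 Negative fragments in replicate 2, where a Negative count of 0 allows up to 10.7 per 10000. In HP the difference was -0.93 in replicate 1 and -2.01 in replicate 2, a mean of -1.47. The difference between the stages was not tested, and the HP values rest on 1 positive and 4 Negative fragments, 3 of the latter from replicate 2. In replicate 1 this was 1 fragment against 1. In replicate 2 the positive count was 0 among only 5208 fragments. The direction in HP was therefore not detectable at this depth.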

How the results depend on the processing

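No member locus or region passed the threshold under any of the alternatives run (369 values, lowest adjusted p 0.357, for Klf4 without a filter), and the summed ratio of observed to expected positive fragments stayed between 1.03 and 1.07. Calls over all loci for positive against Negative fragments were 0, and became 2 with the replicate block, 4 with the Cochran-Mantel-Haenszel test and 0 to 3 with a sort or replicate left out (3 without replicate 2). The Cochran-Mantel-Haenszel test gave 83 calls for ES against later positive and 14 for Negative fragments, against 0 by limma voom, and leaving out a sort gave 0 in these and in the difference of differences. Calls over all regions were 12, and became 30 with no replicate block, 0 with near-identical fragments collapsed, 43 with fragments identical to a Negative one removed, and 5 (without replicate 2) to 20 (without HP of replicate 2). The summed ES minus later difference of 1.88 per 10000 ran from -1.84 to 5.60 as single sorts or replicates were left out, and was -0.13 with a window of 50 kb. Both ends of that range set ES of 1 replicate against later sorts of both. Within replicate 1 alone the difference was 3.21, and within replicate 2 alone 0.54. The cause was not tested for any of these.

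Signs of uncalled log2 differences, given here without subtracting the median of all loci, turned as follows. For positive against Negative fragments that median moved too, from -0.45 to 0.13 unweighted, 0.33 with the scaled prior count and 0.012 by Cochran-Mantel-Haenszel. Against the median, Klf2 and Tbx3 stayed above and Klf4 below with the scaled prior count, the replicate block and the Cochran-Mantel-Haenszel test. For positive against Negative fragments, Klf2 was 0.63 unweighted, 1.19 with the scaled prior count, 0.018 with the replicate block and 0.59 by Cochran-Mantel-Haenszel, Klf4 was 0.0040 unweighted and 0.021 with the scaled prior count, and Tbx3 was 0.36 unweighted, 0.81 with the scaled prior count, 0.41 at 50 kb and 0.068 by Cochran-Mantel-Haenszel. For ES against later positive fragments, Klf2 was 0.13 at 50 kb, Klf4 was 0.053 collapsed, 0.084 with the replicate block, 0.16 at 10 kb and 0.19 by Cochran-Mantel-Haenszel, and Tbx3 was -0.23 unweighted, -0.16 both collapsed and with the scaled prior count, -0.077 with the replicate block, -0.57 at 50 kb and -0.36 by Cochran-Mantel-Haenszel. The difference of differences of Tbx3 was -0.080 at 50 kb. With single sorts or replicates left out, the ranges that crossed 0 were, for positive against Negative, -0.43 to 0.48 (Klf2); for ES against later positive, -1.32 to 0.56 (Klf2), -1.76 to 0.71 (Klf4) and -0.84 to 0.41 (Tbx3); for Negative, -0.59 to 2.02 (Esrrb), -1.45 to 0.44 (Klf2), -0.30 to 1.28 (Klf4) and -1.41 to 0.47 (Tbx3); and for the difference of differences, -1.67 to 0.74 (Esrrb), -0.18 to 0.71 (Klf2) and -1.34 to 1.79 (Tbx3). Ratios of the tested regions crossed 1, at 0 to 1.11, 0.741 to 1.02 and 0.983 to 1.13 for the Esrrb regions in genome order, 0.980 to 1.10 for Klf2 and 0.981 to 1.08 for Klf4. The ratio of 0 was without replicate 1, where the first Esrrb region kept only 1 fragment, a Negative one. Klf2 had too few fragments for a value at 10 kb. In 7 of 20 replicate 2 libraries no member fragment was found, and their depth does not show absence.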
